A study of Homo sapiens and Mus musculus with 9 samples.

Results

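TFF1, TFF3, PHGR1, EPCAM, CDH17, PIGR and CEACAM5 are 7 genes of the colon epithelium whose products are secreted into mucus, carry antibody across the cell or hold neighbouring cells together. They were taken as a named group, and every peak whose summit fell inside the GRCh38 span of one of them was kept. This gave 24 of the 3706 peaks in 3 human peak lists, of which 20 came from LS174T cells and 4 from HepG2 cells. All 7 genes matched the RefSeq gene table, which lists 20037 nuclear protein-coding genes.

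The study used eCLIP to map RNA bound by PXR, the pregnane X receptor encoded by NR1I2, with UV light fixing RNA to protein before RNase digestion, immunoprecipitation (IP) and sequencing. LS174T is a human colorectal adenocarcinoma line, labelled as 1 wild-type input, 1 wild-type IP and 1 IP from PXR knockout cells, the IPs made with an antibody to PXR. HepG2 is a human hepatocellular carcinoma line with 1 input and 2 IPs, made with an antibody to the HA tag. Both lines were irradiated at 254 nm and 400 mJ per cm2, and no drug treatment is named in the labels. Whether the knockout line is 1 clone, and which construct carries the HA tag, is not given in the sources used here. Mouse liver of the same series was not analysed here.

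The lists hold called peaks only, 2103 and 46 in the LS174T lists and 1557 in the HepG2 list, without values for single libraries. Differences between them therefore compare lists and had no replicate spread to be set against. The record ties the larger LS174T list to the wild-type input and the smaller one to the wild-type IP. The names of the same lists and of their peaks read WT and KO instead. The larger is called WT-named here and the smaller KO-named, and neither genotype nor fraction (input or IP) is taken as settled for either. The depth of a peak is given as the reads covering its summit, worked out from the authors' fold enrichment and p-value, and the median peak had 11 reads in the WT-named list, 9 in HepG2 and 19 in the KO-named list. The reads were taken as extended to 200 bp, and the background as a 10000 bp window of the same library. Fold enrichment is therefore not read here as IP over input. Reads may include PCR copies, so every interval covers counting error only.

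Marker genes were counted before the lists were compared. The marker lists include some of the 7 genes, which were grouped with the peaks known. Without the 7 genes, 5 of 12 colon epithelial markers had a WT-named peak and 0 a HepG2 peak. Of 13 luminal breast markers left, 4 had a WT-named and 8 a HepG2 peak. The counts that follow include the 7 genes. Of 16 colon epithelial markers, 8 had a WT-named peak (TFF3, LGALS4, PHGR1, MUC2, CEACAM5, GPA33, TSPAN8 and CDX1). CDX2, VIL1, KRT20, GUCY2C, FABP1, LGR5 and CDH17 were among those without a WT-named peak. The HepG2 list had a peak in 1 of the 16, CDH17, on the strand opposite to that gene. Of 18 hepatocyte markers, among them albumin (ALB) and apolipoprotein A-I (APOA1), the list labelled HepG2 had a peak in 0 and the WT-named list in 0. Of 15 luminal breast epithelial markers, 9 had a HepG2 peak and 6 a WT-named peak, and TFF1, KRT8, KRT18 and KRT19 were hit in both. GATA3 (47 reads), XBP1 (38), MLPH (34), GREB1 (22) and ESR1 (9) had HepG2 peaks but no WT-named peak. TFF3 (68 reads) and AGR2 (21) went the other way, and FOXA1, PGR, AGR3 and SPDEF had no peak in either. Over that luminal list the deepest peaks summed to 616 reads for LS174T (WT-named) and 534 for HepG2. KRT8, KRT18 and KRT19 held most of these reads, with 205, 125 and 146 in LS174T and 164, 110 and 72 in HepG2. The sums thus mainly reflect these keratins and say little of the other markers. Blood markers had a peak in 0 of 9, and stromal and endothelial markers in 0 of 10, in each list. Over all protein-coding genes 7.23% had a WT-named peak and 5.45% a HepG2 peak. Counts of 0 in lists this short lie near those shares. The 0 of 18 hepatocyte markers therefore decides nothing about the HepG2 label. The part of the label in the results for TFF1 and EPCAM was not tested.

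Trefoil factors are small secreted peptides held in a compact fold by disulfide bonds, and goblet and other mucous cells release them with mucins to protect and repair the epithelial surface. PIGR, the polymeric immunoglobulin receptor, carries IgA from the tissue side of the cell to the lumen. EPCAM, CDH17 and CEACAM5 are surface proteins of epithelial cells that take part in adhesion between cells, and PHGR1 encodes a small peptide rich in proline, histidine and glycine that is abundant in the gut lining. PXR itself is a transcription factor switched on by many drugs and steroids, and with its partner RXR it binds DNA at repeats of a short hexamer.

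Of the 7 genes, the RefSeq promoter table (GRCh38.p14) held PIGR and CEACAM5. Their sequences are shown because in both genes the first WT-named peak lay just behind the gene start. For PIGR the peak reached into the table's window. The 30 bases at its upstream edge, chr1:206946418-206946447 on the minus strand, are given first, with all bases in capitals because all lie under the peak, and 66.7% of them are G or C. The 250 bases before each gene start follow, chr1:206946467-206946716 on the minus strand and chr19:41708376-41708625 on the plus strand. Capitals there mark matches to the hexamers AGGTCA or AGTTCA on either strand.
PIGR under the peak: GCAGCAGCGTCCAGTGCCCTGCCAGTAGCT
PIGR before the start: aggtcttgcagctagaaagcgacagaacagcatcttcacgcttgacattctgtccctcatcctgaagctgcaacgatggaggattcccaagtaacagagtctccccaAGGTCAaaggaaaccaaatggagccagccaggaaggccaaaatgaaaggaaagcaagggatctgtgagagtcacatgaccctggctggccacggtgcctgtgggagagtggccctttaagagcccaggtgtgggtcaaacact
CEACAM5 before the start: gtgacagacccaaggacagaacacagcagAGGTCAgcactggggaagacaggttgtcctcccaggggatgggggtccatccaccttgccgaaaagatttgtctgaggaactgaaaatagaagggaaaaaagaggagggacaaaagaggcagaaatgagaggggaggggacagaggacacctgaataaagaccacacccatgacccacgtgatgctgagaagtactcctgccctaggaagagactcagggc

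Each of these windows held 1 match, to AGGTCA in both genes and to AGTTCA in neither. Windows of the same length with AGGTCA made up 12.1% of the 27305 in the table, those with AGTTCA 8.91%, and those with either 19.8%. These are matches of letters in DNA before the gene start, which an RNA crosslinking peak does not cover, and nothing on PXR follows from them. In CEACAM5 the first peak began 17 bases behind the end of the table's window, so none of its bases can be shown.

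The WT-named LS174T list had a peak in 6 of the 7 genes, all except CDH17. The HepG2 list had one in 3, TFF1, EPCAM and CDH17, and the KO-named list in 0 of 7. Over all 20037 protein-coding genes the shares with a peak were 7.23% for the WT-named, 5.45% for the HepG2 and 0.11% for the KO-named peaks. TFF1 and EPCAM carried peaks in both LS174T and HepG2, a state that 2.53% of coding genes shared. TFF3, PHGR1, PIGR and CEACAM5 carried peaks in LS174T and none in HepG2 (4.7% of coding genes), and CDH17 the reverse (2.92%). A peak list gives no RNA level, and more RNA in the cells cannot be told apart from more of it being recovered with the protein. The genes were grouped with these lists known, so the counts describe them and support no enrichment.

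**Figure D1:**
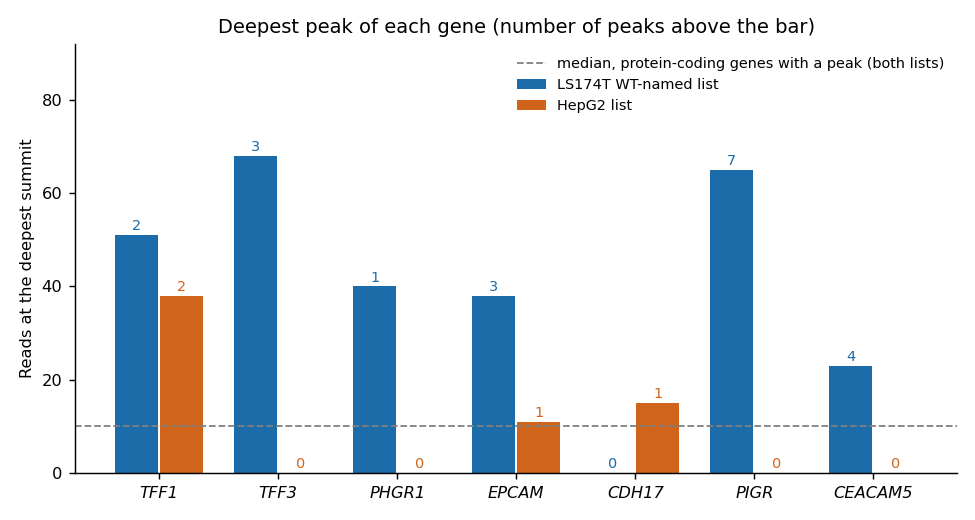
Reads at the deepest summit of each gene (vertical axis, linear) in the WT-named LS174T list (blue) and the HepG2 list (orange), with the number of peaks above each bar, 0 where no peak was called. The dashed line is the median of 10 reads over protein-coding genes with a peak, the same in both lists. TFF3 (68 reads) and PIGR (65) stand highest in LS174T, and TFF1 (38) in HepG2.

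In the WT-named list the 6 genes with a peak were deeper than most, but they were grouped with these lists known. Their depth and number of peaks therefore describe these 6 genes and support nothing wider. Their deepest summits ranged from 23 to 68 reads with a median of 45.5, against a median of 10 and quartiles of 7 and 16 over the 1448 coding genes with a peak. All 6 lay above the upper quartile. In order of depth, TFF3 ranked 38 and PIGR 40 among coding genes, TFF1 59, PHGR1 79, EPCAM 85 and CEACAM5 200. Several peaks in 1 gene were found in 5 of the 6, and in 20.6% of coding genes with a peak. Per length, with introns included, the genes held between 1.69 (EPCAM) and 8.02 (TFF3) peaks per 10 kb, against a median of 0.41 over coding genes with a peak. The 6 genes are 3743 to 21894 bp long, against a median of 28349.5 bp over those coding genes. Among genes with a peak a short one scores high from its length alone, as PHGR1 did with 1 peak (1.85 per 10 kb).

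TFF1, on chromosome 21 from 42362282 to 42366535 (RefSeq gene 7031), encodes the trefoil factor of stomach and other mucous surfaces and is also a gene transcribed under the estrogen receptor in breast cells. Both lists placed a peak at each of its ends and none between. At the start, 145 bp from the gene's 5′ end in LS174T and 187 bp in HepG2, there were 51 reads in LS174T and 38 in HepG2. At the other end the summits lay 43 bp and 1 bp inside the gene, with 37 and 27 reads. Both ends were thus deeper in LS174T, and in each list the start held more reads than the end.

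The ratio of LS174T to HepG2 reads at TFF1 was 1.34 at the start (95% interval 0.865 to 2.1) and 1.37 at the end (interval 0.812 to 2.34). Across 464 overlapping sites in coding genes the median ratio was 1.08, with quartiles of 0.725 and 1.78. Both TFF1 ratios therefore lay between the quartiles, and their intervals included 1. The 10 kb windows around the summits held 108 and 109 reads in LS174T and 103 at both ends in HepG2. The summits of the lists were 42 bp apart at both ends, LS174T nearer the 5′ end, where the median distance over shared sites was 24 bp (quartiles 6 and 62.25). The end peak also lies in the lncRNA gene LOC105372815, which the promoter table places on the plus strand, whereas all 4 TFF1 peaks were on the minus strand, that of TFF1.

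TFF3, the trefoil factor of intestinal goblet cells, lies on the same chromosome from 42311667 to 42315409 (gene 7033). It held 3 WT-named peaks, at 83 bp from the start with 68 reads, in the middle at 1940 bp with 47 reads, and at 3300 bp, 442 bp before the end, with 59 reads. The reads were spread evenly, with the shallowest of the 3 holding 47 of the 68 at the deepest. The summit reads added up to 174 of the 188 reads in the surrounding 10 kb window (92.6%), so few reads on that strand fell elsewhere. Per length this was the densest of the 7 genes, with 46.5 summit reads per kb of gene against 20.7 for TFF1 and 17.6 for PIGR. HepG2 had 0 peaks in TFF3.

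PHGR1, on chromosome 15 from 40351033 to 40356434 (gene 644844), had a single WT-named peak of 40 reads, 175 bp before the gene's end. It was the only one of the 6 genes without a peak at its start. Its fold enrichment of 19.2 was the highest of the 20 member peaks in that list, and it held 40 of the 57 reads in its window (70.2%). HepG2 had no peak in the gene.

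PIGR, on chromosome 1 from 206928522 to 206946466 (gene 5284), carried 7 WT-named peaks, the highest number in that list, which 5 coding genes reached, PIGR included. From the 5′ to the 3′ end their summits held 24, 38, 35, 59, 48, 65 and 47 reads. The first lay 126 bp behind the start, and its upstream 30 bases are those printed above. The other 6 lay between 7310 and 17419 bp, with 7184 bp from the first summit to the second and 1134 to 3144 bp between the rest. The first summit held 24 of 28 reads in its window (85.7%), whereas at the other 6 the windows held 263 to 458 reads and each summit 10.5 to 18.9% of them. Windows of at least 263 reads surrounded 61 of the 1825 WT-named peaks in coding genes. The summits summed to 316 reads, rank 17 among coding genes. Fold enrichment, which divides by the local background, was 16 at the first and 4.82 to 8.38 at the other 6, although those were deeper. HepG2 had no peak in PIGR.

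CEACAM5, on chromosome 19 from 41708626 to 41730519 (gene 1048), encodes carcinoembryonic antigen. Its 4 WT-named peaks held 20 reads at 165 bp from the start, 12 at 1370 bp, 23 at 9715 bp and 19 at 18737 bp. The second of them was the weakest of the 20 member peaks by q, with a −log10 q of 4.8. The gene was the shallowest of the 6, and 33 coding genes, CEACAM5 included, had as many peaks or more. HepG2 had none. CEACAM genes are close copies of each other and how the authors placed reads that match several is not given in the sources used here, so the share of CEACAM5 in these reads is uncertain. Of 12 CEACAM genes, CEACAM6 (13 reads) was the other with a WT-named peak, and HepG2 had 0.

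EPCAM, on chromosome 2 from 47369311 to 47387020 (gene 4072), is a homophilic adhesion molecule and a marker of most epithelia and carcinomas. In LS174T it held 38 reads at 229 bp from the start, 9 at 10648 bp and 7 at 17463 bp, 246 bp before the end. In HepG2 it held a single peak of 11 reads, 232 bp from the start. The start peak was thus the deep one in LS174T and the one that HepG2 shared, with summits 3 bp apart. The ratio there was 3.45 (95% interval 1.73 to 7.49), above the upper quartile of 1.78 over shared sites, and 6.47% of those sites had a higher ratio. The windows held 62 reads in LS174T and 20 in HepG2, a ratio of 3.1 (interval 1.85 to 5.42). Each interval compares 2 lists and not 2 conditions.

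CDH17, liver-intestine cadherin, lies on chromosome 8 from 94127162 to 94217278 (gene 1015) and is the longest of the 7 genes at 90117 bp. Its HepG2 peak, with the summit at 94199805, held 15 reads and was on the plus strand. The gene is commonly annotated on the minus strand, so these reads do not match its own RNA. All 15 reads in the window lay in this peak, which was 200 bp wide. Among HepG2 summits in coding genes of listed strand 15.6% were opposite to the gene, and of these 156 summits 110 held all the reads of their window. In the WT-named list 7.63% were opposite. Neither LS174T list had a peak within the gene or 1000 bp of it. Counted on the gene's own strand, CDH17 thus had no peak in any of the 3 lists, and members with a HepG2 peak numbered 2.

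**Figure D2:**
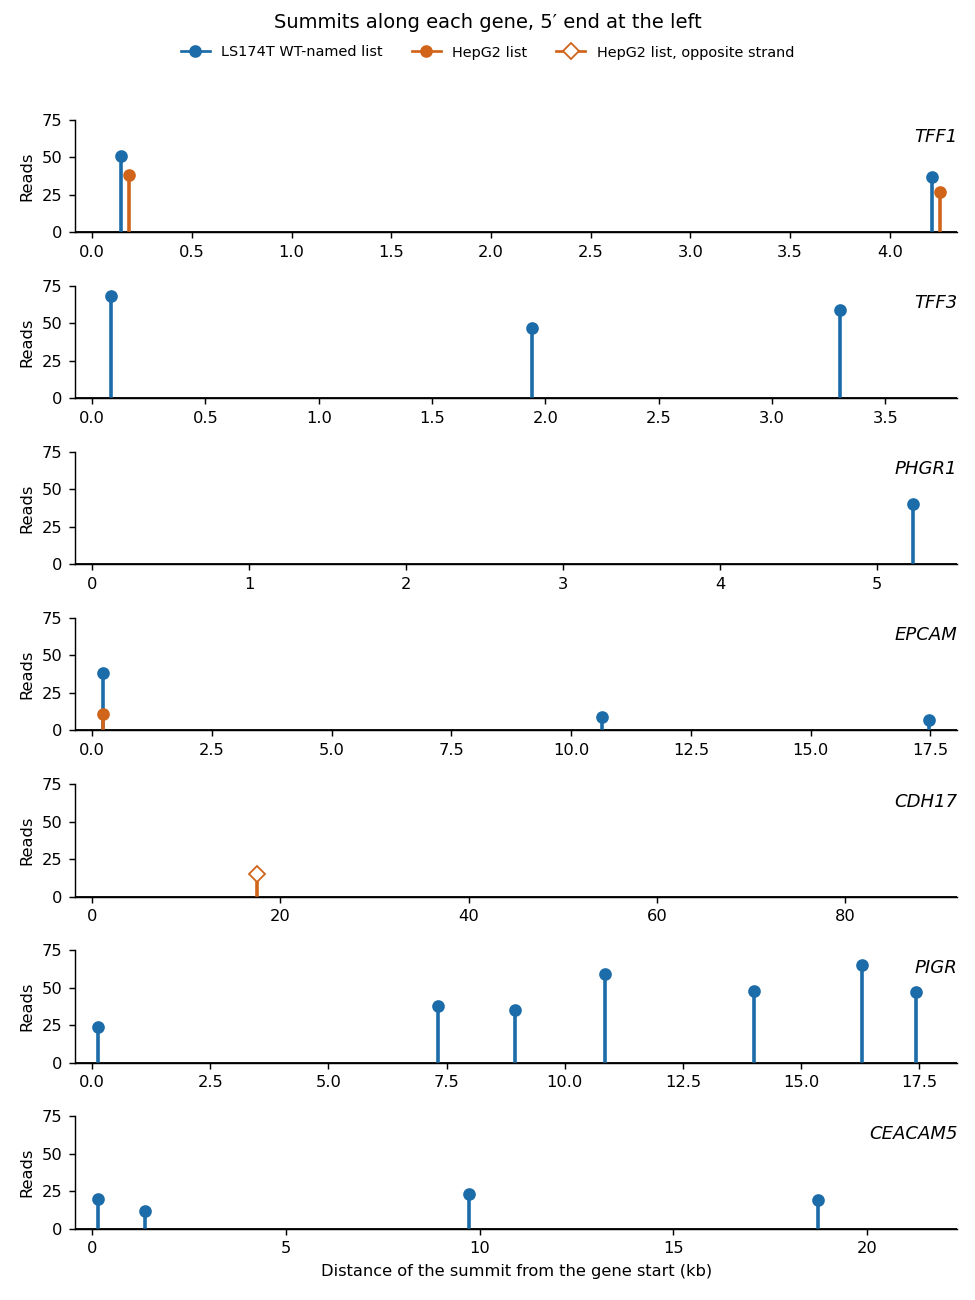
Summits along each gene, with distance from the 5′ end in kb (horizontal axis, its own scale for each gene) and reads at the summit (vertical axis, 0 to 75). Blue circles are WT-named LS174T peaks, orange circles HepG2 peaks, and the open diamond is the HepG2 peak on the strand opposite to CDH17. TFF1 has a peak of each list at both ends, 42 bp apart, and PIGR has 7 LS174T peaks.

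Position was not used to choose the genes. A peak within 500 bp of the gene start was present in 5 of the 6 genes with a WT-named peak, all except PHGR1. Among 1096 coding genes of listed strand with a summit on that strand the share was 50.7%, and in HepG2 it was 49.9%. A gene with several peaks has more chances of one at its start. Several WT-named peaks were found in 5 of the 6 genes, but in 20.6% of coding genes with a peak. Counted by peaks, 5 of 20 WT-named member peaks lay within 500 bp of the start, where 38.7% of the summits on the strand of a coding gene did, and 4 of 20 within 500 bp of the end, against 12.01%. In HepG2 2 of 4 member peaks lay at a start, against 44.6%. TFF1, TFF3 and PHGR1 are short, 3743 to 5402 bp, so that a fixed distance covers more of them. The strands of PIGR and CEACAM5 came from the promoter table and those of the other 5 from common annotation. All 20 WT-named member peaks were on the strand of their gene. Exon and intron positions were not used here.

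**Figure D3:**
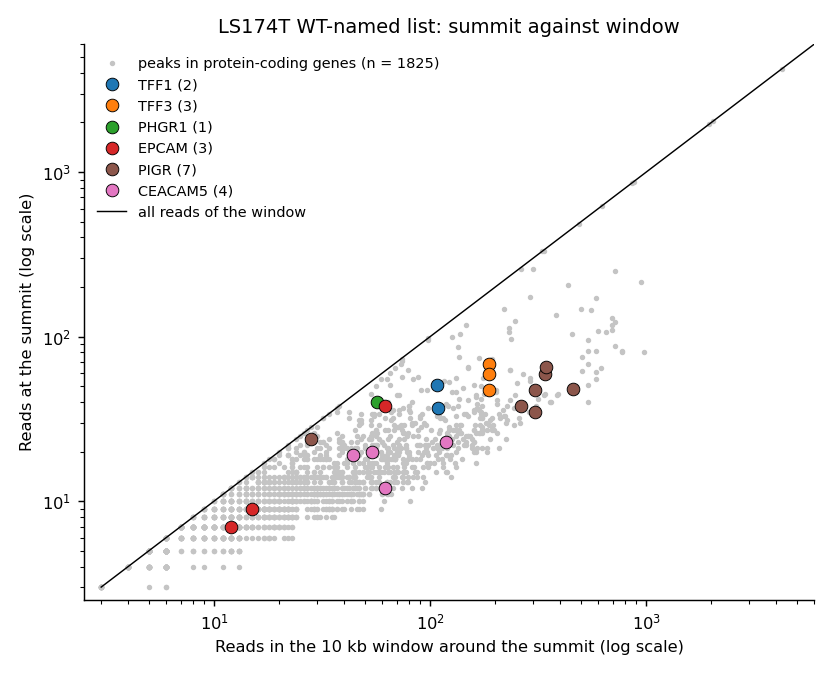
Reads at the summit (vertical axis, log scale) against reads in the 10 kb window around it (horizontal axis, log scale) for the 1825 WT-named peaks in protein-coding genes (grey) and the 20 member peaks (coloured by gene, number in the key). The line marks peaks that hold all reads of their window. The PIGR peaks lie far to the right, at 263 to 458 window reads, except the one at the start, and PHGR1 and the EPCAM start peak lie near the line.

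The share of window reads at the summit ranged from 10.5 to 85.7% over the 20 member peaks, with a median of 32.7%, and its median over all WT-named peaks in coding genes was 50% (quartiles 31.4 and 75%). None of the 20 held all the reads of its window, as 329 of the 2103 WT-named peaks did (15.6%). That share is over the whole list, peaks outside coding genes included. The median window of peaks in coding genes held 22 reads, and all member windows held more except those of the EPCAM peaks at 10648 and 17463 bp. The window's reads include those of nearby peaks of the same gene, which lowers the share and the fold. This holds for TFF3 and all but the first PIGR peak. It also holds for TFF1 (summits 4065 bp apart) and the first and second CEACAM5 peaks (1205 bp apart).

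For the genes without a HepG2 peak, the depth of that list was considered. HepG2 peaks were called from as few as 3 reads, and 72.3% of them held at most 15. Of the coding genes whose deepest WT-named peak was within 1.5 times that of TFF3, 34 of 47 (the gene itself included) also had a HepG2 peak, and the same held for 33 of 49 at the depth of PIGR, 64 of 124 at that of PHGR1 and 132 of 265 at that of CEACAM5. Over all coding genes with a WT-named peak the share was 34.9%. Counted by single WT-named peaks of like depth, the shares that overlapped a HepG2 peak were 37 of 69 at the depth of TFF3 (53.6%, exact interval 41.2 to 65.7%), 37 of 77 at that of PIGR (48.1%, 36.5 to 59.7%), 34.0% at that of PHGR1 and 31.5% at that of CEACAM5. These shares describe genes and peaks of like depth, the members included, and whether the depth of the HepG2 list accounts for the missing peaks was not tested. Peak by peak, 3 of the 20 WT-named member peaks overlapped a HepG2 peak (15.0%), against 25.5% of all WT-named peaks in coding genes. The 20 peaks lie in 6 genes and are not independent, so no interval is given and the difference was not tested. Peaks of the same gene are not independent in the classes of like depth either, which the intervals above ignore. In turn 3 of the 4 HepG2 member peaks had a WT-named partner, all except CDH17.

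**Figure D4:**
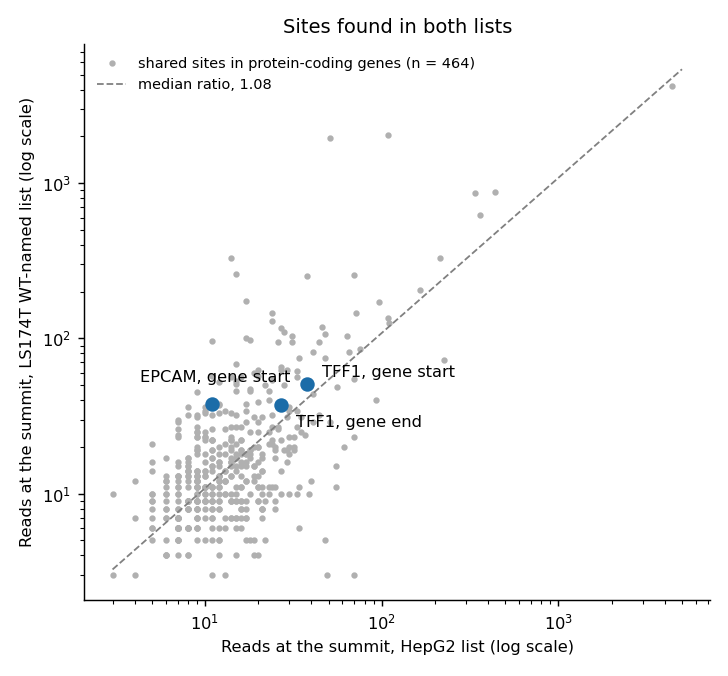
Reads at the summit in HepG2 (horizontal axis, log scale) and in the WT-named LS174T list (vertical axis, log scale) for the 464 sites in protein-coding genes found in both (grey) and for the 3 member sites (blue). The dashed line is the median ratio of 1.08. Both TFF1 sites lie close to the line and EPCAM lies above it at 38 against 11 reads.

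The KO-named list, with 46 peaks, had none in the 7 genes. The shallowest of its peaks held 4 reads. KRT8 (18 reads) and KRT19 (14 reads), epithelial keratins with 205 and 146 reads in the WT-named list, were the genes of the marker lists that it did contain. KO-named peaks lay in 22 of the 20037 coding genes. Genes outside the marker lists with a KO-named peak included some no deeper than TFF3 in the WT-named list, such as GOLGA3 (33 reads, and 11 in the KO-named list) and ADRA1B (21 and 15 reads), named after their values were seen. The share of genes at that depth with a KO-named peak was not counted, so these examples say nothing on the part of depth. Since the genotype and fraction of both LS174T lists are unsettled, depth, genotype and fraction cannot be told apart at the 7 genes.

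Wider lists of related genes were counted in the same way. Of 26 genes of mucus and secretory cells, 8 had a WT-named peak and 1, TFF1, had a HepG2 peak. Over all coding genes the shares were 7.23% and 5.45%. Without the 7 genes, 4 of 22 had a WT-named peak and 0 a HepG2 peak. Those 4 were MUC2 (24 reads), the main gel-forming mucin of the colon, AGR2 (21 reads), a disulfide isomerase needed for mucin folding, the lectin gene REG4 (13 reads) and the mucin gene MUC5B (12 reads). TFF2, the other trefoil factor, had no peak in any of the 3 lists. MUC1, MUC4, MUC5AC, MUC6 and MUC13 had none either.

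Of 28 adhesion and junction genes, 18 had a WT-named peak and 7 a HepG2 peak, and 5 were hit in both. Without the 7 genes, 16 of 25 had a WT-named peak and 5 a HepG2 peak. The galectin gene LGALS4 (50 reads over the deepest of 4 peaks) and the claudin gene CLDN7 (42 reads over the deeper of 2) were deepest in LS174T, and neither had a HepG2 peak. Claudins are the strand-forming proteins of tight junctions, and CLDN4 held 3 peaks in LS174T and 3 in HepG2, with 36 reads in LS174T and 30 in HepG2. CLDN3 went the other way, with 15 reads in LS174T and 55 in HepG2. CDH1, the classical epithelial cadherin, had 10 reads in LS174T and 17 in HepG2, at places that did not overlap. Peaks in HepG2 were thus found in some epithelial adhesion genes, while the counts were lower than in LS174T for both lists of genes. Over all coding genes the HepG2 share was lower by less, 5.45% against 7.23%. The gene lists were drawn up with earlier results of these data known.

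The gene nearest to each member in pattern was found over 6 values, the deepest reads and the number of peaks in each of the 3 lists, as a distance on the log2 scale. PHGR1 was nearest to ADAP1 (38 reads in LS174T, distance 0.072), TFF3 to RPL3 (74 reads over the deepest of 3 peaks, 0.12) and CEACAM5 to ITGB4 (20 reads, 4 peaks, 0.193). EPCAM was nearest to CD9, a tetraspanin gene with 34 reads in LS174T and 10 in HepG2 (0.2), and TFF1 to ZFHX3 with 50 and 28 reads (0.428). PIGR was furthest from any other gene, with VEGFA (59 reads, 4 peaks) at 0.692. CDH17 had the same values as 14 genes, COG8 first in the alphabet.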

How the data were processed

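Per the submitters' processing notes, the reads were handled with cutadapt, BWA and MACS2 on hg38 (mouse on mm10). Versions, settings and any pooling of the 2 HepG2 IP libraries are not given in the sources used here. Taken from the deposited lists were the fold enrichment (a ratio over local background), the −log10 p-value, the −log10 q-value and the summit position. The deposited score equalled the whole part of 10 times the −log10 q for every peak, and the authors called peaks for each strand, per the peak names in the files.

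Reads were recovered as the whole numbers n (summit) and w (10000 bp window) for which fold = (n + 1) / (0.02w + 1) and the chance of exceeding n under a Poisson law with mean 0.02w matched the deposited −log10 p within 0.001 plus a small relative term. Of 3706 human peaks all had a solution, unique in all but 1. The recovery was also run on data simulated from the same formula, which cannot check the assumed 200 bp extension or 10000 bp window.

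Summits were assigned to RefSeq gene spans (GRCh38.p14) without regard to strand. Peaks of 2 lists were shared when they overlapped by at least 1 bp on the same strand. Intervals are exact (Clopper-Pearson, 95%). No replicate test was possible, so no p-value is given. Genes named are the 7 members, up to 4 per further list by depth (more in the marker counts and for members' relatives, which were chosen after their values were seen), and the nearest gene in pattern. Members and lists were chosen with earlier results of these data known. Python 3.11.15, SciPy 1.17.1 and pandas 2.3.3 were used.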

Additional observations from a re-analysis of the deposited data

How the results depend on the processing

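Counts of members and of member peaks in each list, and reads ratios at TFF1 and EPCAM, were recomputed with a −log10 q of at least 5, at least 10 reads, any overlap with the gene, the gene's own strand and a span extended by 1000 bp, with stricter overlap for shared peaks, and with reads summed over the gene or divided by the median ratio. Of 43 recomputed values, 42 stayed within 1.5 times the count or within the interval of the ratio. The exception was the number of members with a peak in HepG2 alone, which was 1 without regard to strand and 0 on the gene's own strand, since the CDH17 peak lies on the other strand. The TFF1 ratio ranged from 1.24 to 1.35 and the EPCAM ratio from 3.19 to 4.91. Peaks of few reads limit what can be said of HepG2, where 55.4% held at most 10. No paired analysis was possible because the lists carry no values per library.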

Other observations

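A pair of small peaks lay outside PHGR1, on the minus strand 1740 bp behind its end in the WT-named LS174T list (4 reads) and 1735 bp in HepG2 (8 reads). In each list the peak held all the reads of its window. The summits were in no listed gene, and the peaks touched the start of DISP2, which the promoter table places on the plus strand.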
